A study of Homo sapiens with 6 samples.

Results

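Type I interferon-stimulated genes are genes that cells switch on when interferon alpha or beta reaches its receptor at the cell surface. The receptor's kinases JAK1 and TYK2 phosphorylate STAT factors, among them STAT2, which joins IRF9 in the complex ISGF3, and this complex binds a DNA element called the interferon-stimulated response element (ISRE) in the promoters of its targets. Their products sense viral RNA, block translation, cut RNA, hold new virus particles at the membrane or regulate the pathway itself, and many epithelial and tumour cells express part of the set at a low level without added interferon. A fixed list of 39 such genes and their regulators was taken from the table by gene symbol, and all 39 were among its 20824 genes. The list was drawn up with earlier results of these data known, so its direction of change is a description and not independent evidence. A filter on low values (a mean of at least 0.5 RPKM over all libraries) left 33 of them among the 12805 genes that were tested. The 6 others, *OAS2*, *RSAD2*, *CMPK2*, *MX2*, *IRF7* and *XAF1*, were under 0.5 RPKM in every library. RPKM is reads per kilobase of transcript scaled to the alignments of the library. It is a level per length, so values can be set beside each other between genes. Between libraries the values also depend on the scaling, which was varied, and some calls changed with it.

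The libraries came from 21NT, an established human breast line that resembles ductal carcinoma *in situ*, and the study asked how transcription changed when either isoform of the T-box factor TBX3 was overexpressed. The lines were 21NT with the empty pcDNA3.1 vector (EV), with TBX3iso1 and with TBX3iso2, an isoform with an insertion in the DNA binding domain. All 3 lines went through stable transfection and G418 selection, and all grew in medium with serum, insulin, EGF and hydrocortisone. No interferon treatment is named for any line, and whether the cells were free of interferon signalling was not tested. Each line was a pool of resistant cells with 2 libraries, so that the 2 libraries repeat 1 transfection. Nothing in the sources says that they are separate cultures, and the p-values may therefore measure technical spread. The libraries held 43176600 to 54512400 alignments, so 1 RPKM stood for 43.2 to 54.5 alignments per kilobase of transcript. *TBX3* itself, measured as total transcript and not by isoform, was at 8.52 and 8.24 RPKM in EV, 13.1 and 11.4 RPKM in TBX3iso1 and 17.5 and 15.5 RPKM in TBX3iso2. Both libraries of each isoform line lay above both EV libraries. On the log2(RPKM + 0.1) scale its fold changes by limma, fitted over all genes tested, were 0.54 (adjusted p = 0.00378), under a fold of 1.5, and 0.97 (adjusted p = 0.000257).

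The promoter sequences show the element that most of these genes share. RefSeq promoters (assembly GRCh38.p14, 250 bases before to 50 bases after 1 start site per gene) were at hand for 32 of the 39 genes. The ISRE core, searched as GAAANNGAAA on both strands, was in 20 of the 32, or 62.5%, and in 3.65% of all 27305 promoters of this length. The gamma-activated site of interferon gamma signalling, searched as TTCNNNGAA, was in 8 of the 32, or 25%, against 7.88% of all promoters, and it can overlap the ISRE in position. The core of the T-box element, searched as AGGTGTNA, was in 0 of the 32 and in 2.64% of all promoters. So low a share among all promoters makes a count of 0 in 32 uninformative. Sequence outside this window was not searched. Stretches of 60 bases are printed below on each gene's own strand, with ISRE matches on either strand in capitals. Of the 7 genes called lower in both isoform lines, *STAT2* and *OAS1* held no ISRE match in this window. The 5 that held one form the first group.

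*BST2*, chr19:17405720-17405779, minus strand: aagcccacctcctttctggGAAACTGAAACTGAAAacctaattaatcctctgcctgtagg
*IFITM1*, chr11:313975-314034, plus strand: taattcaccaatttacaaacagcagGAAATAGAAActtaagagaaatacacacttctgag
*IFI6*, chr1:27672251-27672310, minus strand: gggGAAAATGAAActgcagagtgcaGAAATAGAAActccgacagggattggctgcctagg
*SAMD9*, chr7:93118081-93118140, minus strand: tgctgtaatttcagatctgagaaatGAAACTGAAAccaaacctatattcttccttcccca
*IFI27*, chr14:94110616-94110675, plus strand: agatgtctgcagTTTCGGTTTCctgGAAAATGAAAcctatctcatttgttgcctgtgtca

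The second group holds 3 genes of the same class that passed the thresholds in no comparison.

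*ISG15*, chr1:1013365-1013424, plus strand: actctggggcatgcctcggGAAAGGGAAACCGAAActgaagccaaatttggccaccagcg
*IFIT1*, chr10:89392495-89392554, plus strand: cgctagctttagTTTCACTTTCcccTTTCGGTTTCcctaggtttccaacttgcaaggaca
*IFIT3*, chr10:89327850-89327909, plus strand: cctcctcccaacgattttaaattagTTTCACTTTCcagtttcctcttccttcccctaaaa

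An ISRE match was present on both sides of the thresholds. Of the 14 differentially expressed genes with a promoter at hand, 8 held a match, and of the 15 genes tested and not called, 12 held one. For the gamma-activated site the counts were 7 of 14 and 1 of 15, the 1 being *IRF1*. These matches describe letters in a window and not bound sites.

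In 21NT cells with the empty vector the set was expressed unevenly. The EV mean was at least 1 RPKM for 31 of the 39 genes, at least 10 RPKM for 12 and at least 50 RPKM for 2, *IFITM2* and *IFITM1*. At the other end *RSAD2*, which encodes viperin, and its neighbour *CMPK2*, a mitochondrial nucleotide kinase, stayed between 0.0484 and 0.168 RPKM in all libraries. *MX2* stayed at or under 0.0824 RPKM and *XAF1* at or under 0.0240 RPKM. *IRF7*, the factor that amplifies interferon production, was listed at 0 in 4 of the 6 libraries and reached 0.0402 RPKM in 1 EV library.

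**Figure D1:**
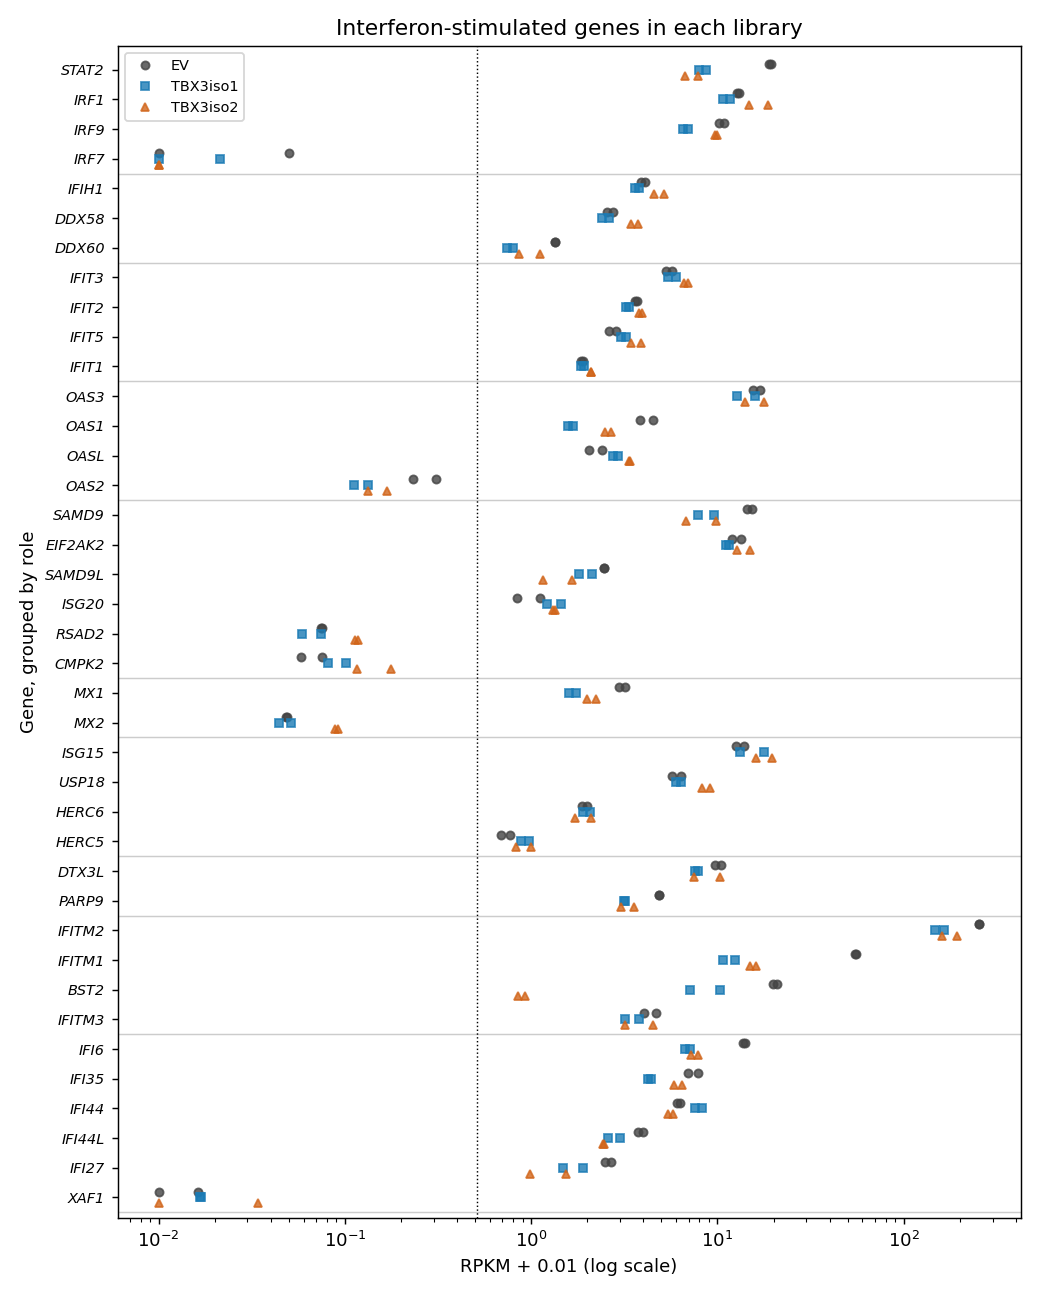
Level of each of the 39 genes in each of the 6 libraries, as RPKM + 0.01 on a log axis, with EV as circles, TBX3iso1 as squares and TBX3iso2 as triangles. Genes are grouped by role, and the dotted line marks 0.5 RPKM (also with 0.01 added); 6 genes lie to its left in every library, and the *BST2* triangles stand far to the left of its circles.

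More of these genes were called lower than higher in both isoform lines. A gene was called when limma's adjusted p was under 0.05 and the fold change over 1.5. Against EV, TBX3iso1 had 13 of 33 genes called, or 39.4%, all 13 lower and 0 higher, where 21.5% of all genes tested were called, 14.1% lower and 7.46% higher. TBX3iso2 had 10 of 33 called, or 30.3%, with 9 lower and 1 higher, where 21.2% of all genes were called, 12.3% lower and 8.94% higher. A further 2 genes were higher and 1 lower with TBX3iso1 at an adjusted p under 0.05 with a fold under 1.5. With TBX3iso2 these were 5 higher and 3 lower. By sign alone, 10 genes were positive and 23 negative with TBX3iso1, and 13 positive and 20 negative with TBX3iso2. The median log2 fold change of the 33 genes was -0.32 with TBX3iso1, beside -0.05 for all genes, and -0.14 with TBX3iso2, beside -0.00. The second median is small, and without EV replicate 1 it was -0.09. Under quantile normalization the calls among all genes split more evenly, with 1259 higher and 1313 lower for TBX3iso1 and 1315 and 1338 for TBX3iso2, and the members called were then 10 in each comparison, of which 1 rose with TBX3iso1 and 2 rose with TBX3iso2.

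Both comparisons use the same EV libraries, so that an overlap of their calls is no separate result. The genes called lower with TBX3iso1 were *BST2*, *IFITM1*, *STAT2*, *OAS1*, *IFI6*, *SAMD9*, *IFI27*, *DDX60*, *IFI35*, *IFITM2*, *IRF9*, *MX1* and *PARP9*. Those called lower with TBX3iso2 were the first 7 of these, *IFI44L* and *SAMD9L*, and *OASL* was called higher. The remaining 17 genes tested passed in no comparison. A gene called in 1 line and not in the other is not thereby shown to differ between them, and the direct comparison of the isoforms is given further on.

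**Figure D2:**
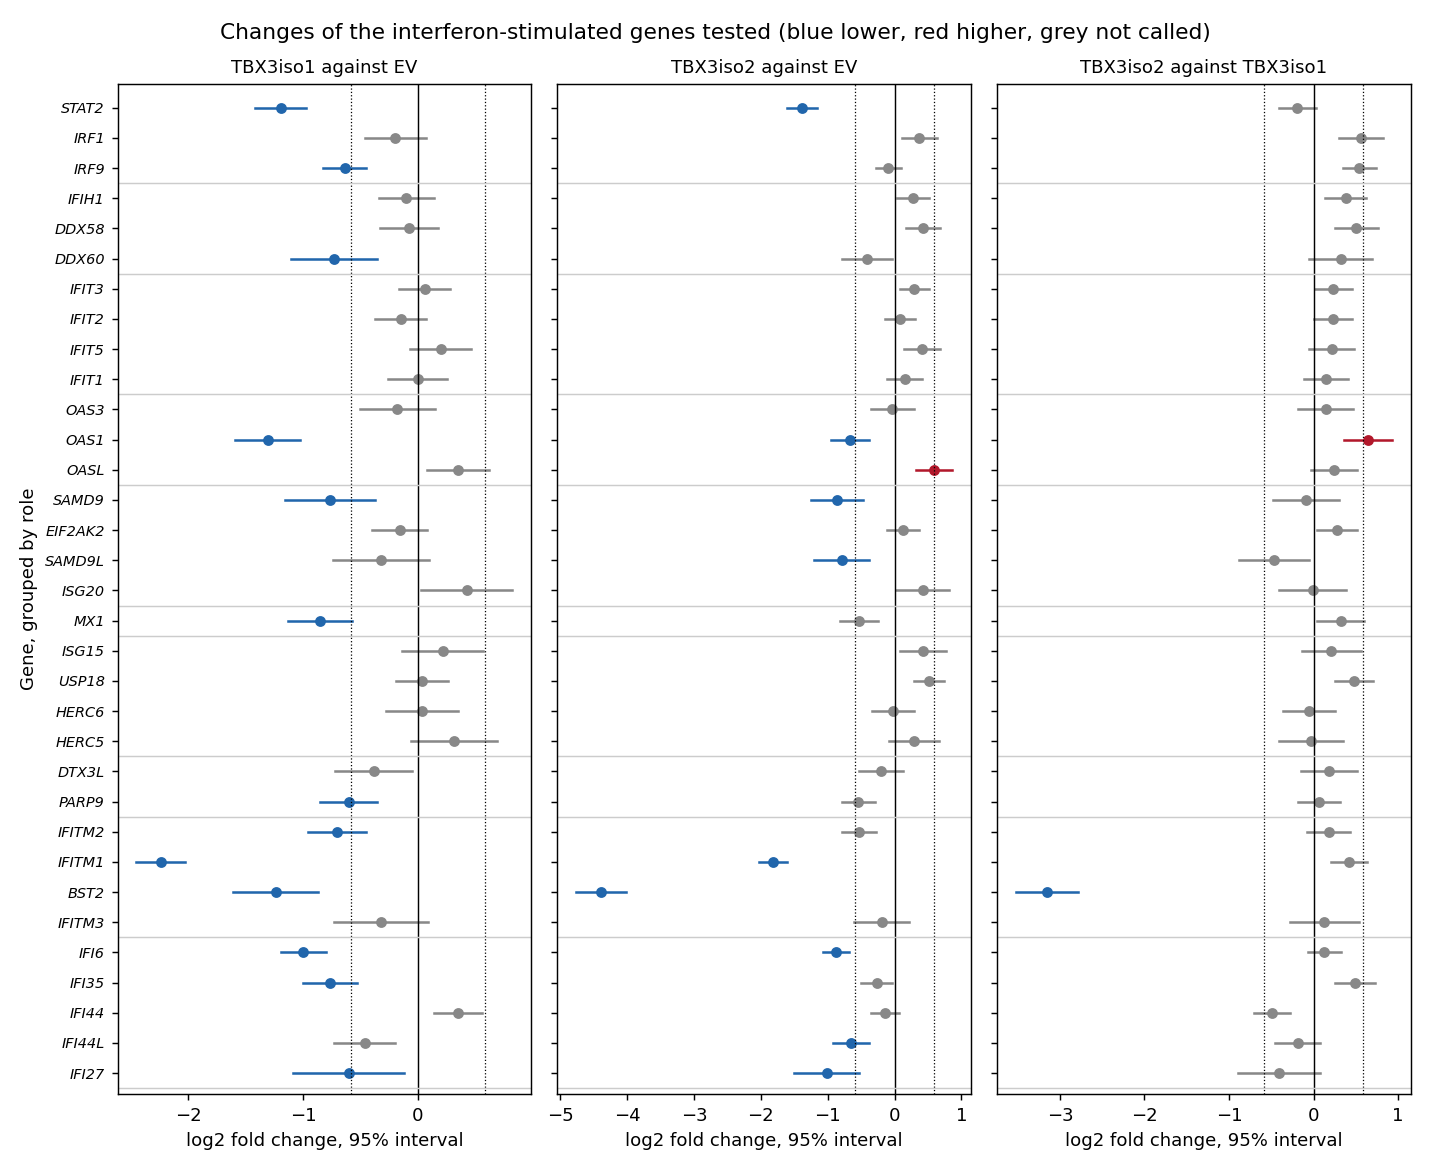
Log2 fold change, on the log2(RPKM + 0.1) scale, of the 33 genes tested in the 3 comparisons, with 95% confidence intervals as bars. Blue marks genes called lower, red called higher and grey not called, the dotted lines mark a fold change of 1.5, and the horizontal range differs between panels. TBX3iso1 has 13 blue points, TBX3iso2 has 9 blue and 1 red, and *BST2* lies at -4.39 in the second panel.

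The largest change in each comparison with EV was in a membrane restriction factor, *IFITM1* with TBX3iso1 and *BST2* with TBX3iso2. These factors are proteins that stop viruses as they enter or leave the cell. *BST2* encodes tetherin, which ties budding virus particles to the cell surface, and lies on chromosome 19 of GRCh37 from 17513748 to 17516439. Its level was 20.0 and 20.7 RPKM in EV, 7.14 and 10.3 RPKM in TBX3iso1 and 0.835 and 0.912 RPKM in TBX3iso2. The lines did not overlap and stood in the order EV, TBX3iso1, TBX3iso2, with the last close to the filter on low values. From means of 20.3 ± 0.542, 8.70 ± 2.21 and 0.874 ± 0.0538 RPKM (SD, n = 2), TBX3iso1 was 2.34-fold and TBX3iso2 23.3-fold lower than EV. On the log2(RPKM + 0.1) scale *BST2* fell by 1.24 (95% interval -1.61 to -0.87, adjusted p = 0.000759, limma) with TBX3iso1 and by 4.39 (-4.76 to -4.02, adjusted p = 4.39e-06) with TBX3iso2.

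*IFITM1*, an interferon-induced transmembrane protein that hinders fusion of viral with cellular membranes, lies on chromosome 11 of GRCh37 from 310041 to 315272. It was at 55.5 and 54.4 RPKM in EV, 10.7 and 12.5 RPKM in TBX3iso1 and 14.9 and 16.0 RPKM in TBX3iso2. Both isoform lines lay far below EV, 4.74-fold and 3.55-fold by their means, and TBX3iso1 was the lower of the isoform lines. The log2 fold changes were -2.24 (adjusted p = 5.63e-06) and -1.82 (adjusted p = 1.13e-05). *IFITM2*, its neighbour from 303655 to 309397, was the most abundant gene of the set, with 255 and 252 RPKM in EV, 148 and 163 RPKM in TBX3iso1 and 161 and 193 RPKM in TBX3iso2. It was below EV in all isoform libraries. Its fold change passed both thresholds with TBX3iso1 (log2 -0.70, adjusted p = 0.00181), while with TBX3iso2 (log2 -0.53, adjusted p = 0.00651) it stayed under a fold of 1.5 except without TBX3iso2 replicate 2 (log2 -0.66) and under quantile normalization. *IFITM3* ranged from 3.18 to 4.68 RPKM and was not called, with log2 fold changes of -0.32 and -0.19. These genes are near copies of each other: 12.1% of the read-length stretches of the longest *IFITM1* transcript, 9.83% of those of *IFITM2* and 2.69% of those of *IFITM3* also occur in transcripts of other genes, so the split of reads between them is uncertain.

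**Figure D3:**
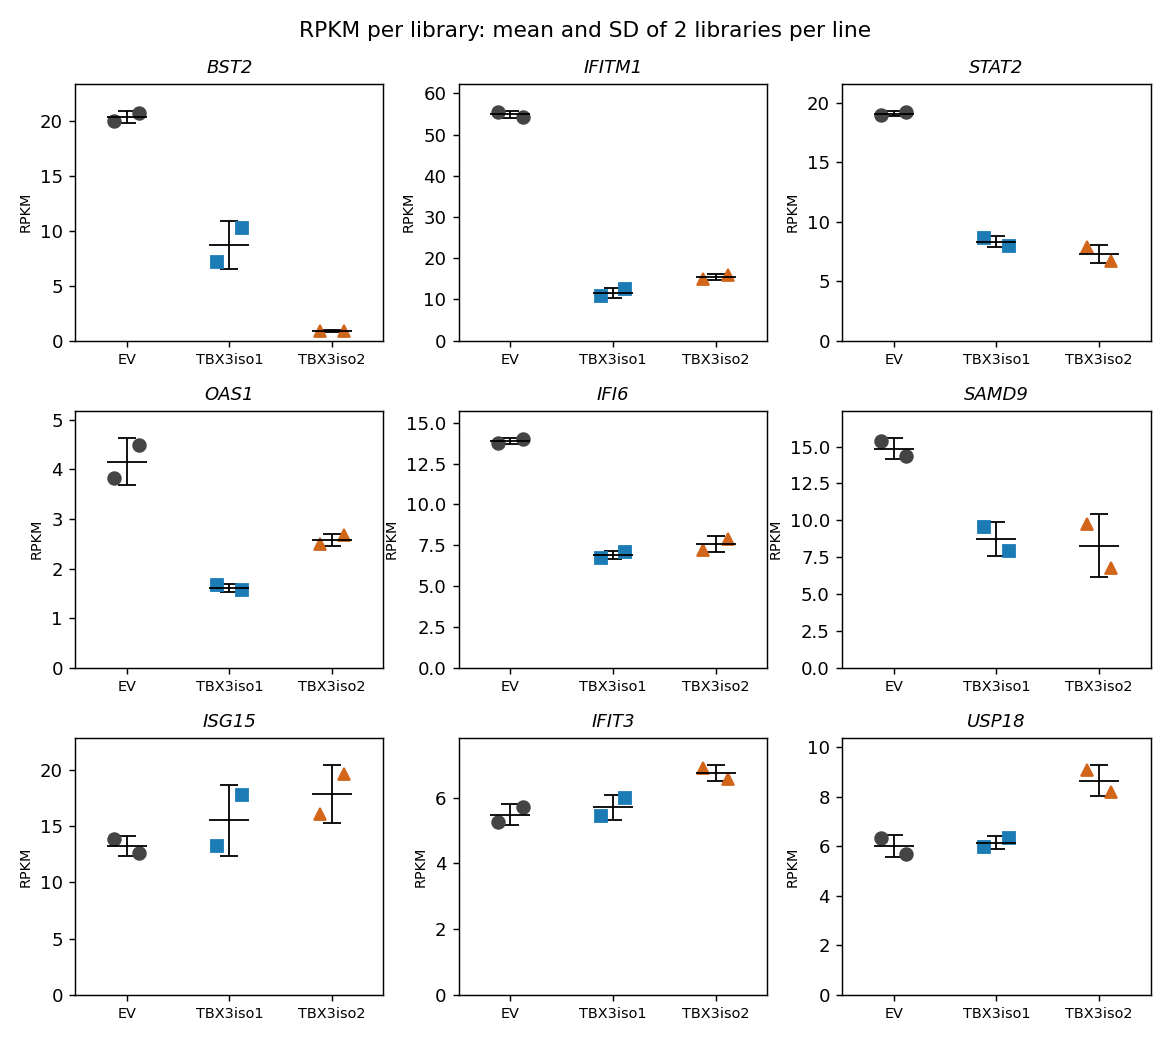
RPKM of 9 genes in each library on linear axes that start at 0, with circles for EV, squares for TBX3iso1 and triangles for TBX3iso2; horizontal lines are means and bars the SD of 2 libraries. The 6 genes of the upper and middle panels are below EV in every isoform library, while *ISG15*, *IFIT3* and *USP18* in the lower panels passed the thresholds in no comparison.

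Among the regulators, *STAT2* fell in both lines, *IRF9* in 1 and *IRF1* in neither. *STAT2*, the subunit that brings the activation domain, lies on chromosome 12 of GRCh37 from 56735381 to 56753987. Its level was 18.95 and 19.2 RPKM in EV, 8.63 and 7.97 RPKM in TBX3iso1 and 7.84 and 6.72 RPKM in TBX3iso2. Every isoform library lay far below both EV libraries, and the isoform lines lay close to each other. The log2 fold changes were -1.19 (adjusted p = 8.89e-05) and -1.38 (adjusted p = 4.95e-05). *IRF9*, the DNA-binding subunit of ISGF3, was at 10.8 and 10.1 RPKM in EV, 6.91 and 6.52 RPKM in TBX3iso1 and 9.70 and 9.96 RPKM in TBX3iso2. It fell with TBX3iso1 (log2 -0.64, adjusted p = 0.000737) and was not called with TBX3iso2 (log2 -0.09, adjusted p = 0.383). The *IRF9* call lies near the fold threshold and was lost with a pseudocount of 1 RPKM, with median-ratio scaling and with quantile normalization. *IRF1*, an interferon-induced factor that acts on many of the same promoters, was at 13.0 and 12.7 RPKM in EV, 10.7 and 11.7 RPKM in TBX3iso1 and 18.5 and 14.8 RPKM in TBX3iso2. Its log2 fold changes were -0.19 (adjusted p = 0.192) and 0.37 (adjusted p = 0.0314), neither past the fold threshold.

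The cytoplasmic RNA sensors stayed close to EV apart from *DDX60*. *IFIH1* encodes MDA5 and *DDX58* encodes RIG-I, the helicases that recognise viral double-stranded RNA. *IFIH1* ranged from 3.61 to 5.16 RPKM and *DDX58* from 2.40 to 3.72 RPKM over the 6 libraries. For both, the TBX3iso2 libraries were the highest, and *DDX58* reached a log2 fold change of 0.43 against EV (adjusted p = 0.0153), under a fold of 1.5. *DDX60*, a helicase linked to RIG-I signalling, was at 1.33 RPKM in each EV library, 0.793 and 0.732 RPKM in TBX3iso1 and 1.11 and 0.856 RPKM in TBX3iso2. It fell with TBX3iso1 (log2 -0.73, adjusted p = 0.0087). That call was lost without EV replicate 1 (log2 -0.73) and without EV replicate 2 (log2 -0.73). It was also lost with a pseudocount of 1 RPKM (log2 -0.40), with quantile normalization (log2 -0.52) and with an unmoderated linear model (adjusted p = 0.0565).

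None of the 4 IFIT genes, whose products bind viral RNA ends and block their translation, was called against EV. Among all genes tested, 21.5% were called with TBX3iso1 and 21.2% with TBX3iso2. *IFIT1* was at 1.85 and 1.90 RPKM in EV, 1.83 and 1.91 RPKM in TBX3iso1 and 2.09 RPKM in both TBX3iso2 libraries. Its log2 fold change with TBX3iso1 was 0.00 with a 95% interval of -0.26 to 0.26, which is within a fold of 1.5. *IFIT3*, the partner that stabilises IFIT1, was at 5.26 and 5.70 RPKM in EV, 5.44 and 5.99 RPKM in TBX3iso1 and 6.91 and 6.57 RPKM in TBX3iso2. *IFIT1*, *IFIT2* and *IFIT3* overlap *LIPA*, a lysosomal lipase gene on the other strand, which was at 34.0 and 33.7 RPKM in EV, 19.9 and 17.1 RPKM in TBX3iso1 and 23.6 and 23.5 RPKM in TBX3iso2, and its part in their values was not tested. The TBX3iso2 libraries were above the EV libraries for all 4 genes, with log2 fold changes of 0.08 for *IFIT2*, 0.15 for *IFIT1*, 0.29 for *IFIT3* and 0.41 for *IFIT5*. Of these, *IFIT3* (adjusted p = 0.0363) and *IFIT5* (adjusted p = 0.0208) had an adjusted p under 0.05 without reaching the fold.

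The OAS family makes 2'-5' oligoadenylate, the signal that activates RNase L, and its members went different ways. *OAS1*, on chromosome 12 of GRCh37 from 113343661 to 113371024, was at 3.82 and 4.49 RPKM in EV, 1.67 and 1.56 RPKM in TBX3iso1 and 2.49 and 2.67 RPKM in TBX3iso2. EV was highest and TBX3iso1 lowest, with no overlap between lines. The log2 fold changes were -1.31 (adjusted p = 0.000169) and -0.66 (adjusted p = 0.00356). The second call was lost without EV replicate 2 (log2 -0.55), with a pseudocount of 1 RPKM (log2 -0.52) and with quantile normalization (log2 -0.53). *OAS3*, which starts at 113375856 on the same strand, was at 16.8 and 15.6 RPKM in EV, 15.9 and 12.8 RPKM in TBX3iso1 and 17.8 and 14.1 RPKM in TBX3iso2. The 3 lines overlapped, and the log2 fold changes were -0.18 (adjusted p = 0.325) and -0.03 (adjusted p = 0.865, 95% interval -0.36 to 0.29). *OAS2*, the next gene of the cluster, was not tested and was at 0.297 and 0.223 RPKM in EV and 0.102 to 0.158 RPKM in the isoform lines. An antisense gene overlaps all 3 cluster genes. In all, 21 of the 39 genes, 17 of them tested, overlap an annotated gene on the other strand, and whether counting used strand is not given in the sources used here. *OASL*, a relative without the enzymatic activity that enhances RIG-I signalling, was the 1 gene of the set called higher against EV. It was at 2.03 and 2.38 RPKM in EV, 2.75 and 2.90 RPKM in TBX3iso1 and 3.34 and 3.38 RPKM in TBX3iso2. The rise with TBX3iso2 (log2 0.59, adjusted p = 0.00489) only just passed the fold threshold and was lost without EV replicate 1 (log2 0.48), without TBX3iso2 replicate 2 (log2 0.58) and with a pseudocount of 1 RPKM.

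Of the other effectors on RNA and translation, the paired genes *SAMD9* and *SAMD9L*, which restrict poxviruses, were lower in the isoform lines. *SAMD9* was at 15.4 and 14.4 RPKM in EV, 9.53 and 7.90 RPKM in TBX3iso1 and 9.77 and 6.77 RPKM in TBX3iso2. It fell with TBX3iso1 (log2 -0.77, adjusted p = 0.00837) and TBX3iso2 (log2 -0.86, adjusted p = 0.005). The first call was lost without EV replicate 1 (log2 -0.72). Both calls were lost with an unmoderated linear model (adjusted p = 0.117 and 0.0946). *SAMD9L* was at 2.46 RPKM in each EV library, 2.12 and 1.79 RPKM in TBX3iso1 and 1.65 and 1.14 RPKM in TBX3iso2. It was called with TBX3iso2 (log2 -0.79, adjusted p = 0.00898) and not with TBX3iso1 (log2 -0.32, adjusted p = 0.177). The call was lost without EV replicate 1 (log2 -0.79), without EV replicate 2 (log2 -0.79) and without TBX3iso2 replicate 2 (log2 -0.55). It was also lost with a pseudocount of 1 RPKM (log2 -0.54) and with an unmoderated linear model (adjusted p = 0.0938). *EIF2AK2*, which encodes the kinase PKR that halts translation, was at 13.4 and 11.998 RPKM in EV, 11.5 and 11.1 RPKM in TBX3iso1 and 15.0 and 12.6 RPKM in TBX3iso2, with log2 fold changes of -0.16 and 0.12, neither called. The exonuclease gene *ISG20* ranged from 0.827 to 1.44 RPKM, with both EV libraries the lowest, and its log2 fold changes of 0.43 and 0.42 had adjusted p of 0.0763 and 0.0801.

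*MX1*, a dynamin-like GTPase that traps incoming viral nucleocapsids, was at 3.17 and 2.97 RPKM in EV, 1.74 and 1.58 RPKM in TBX3iso1 and 2.22 and 1.97 RPKM in TBX3iso2. It was lower in all isoform libraries. It was called with TBX3iso1 (log2 -0.85, adjusted p = 0.00118), while with TBX3iso2 (log2 -0.53, adjusted p = 0.00944) it passed the fold threshold only without TBX3iso2 replicate 1 (log2 -0.61). *TMPRSS2*, which overlaps it on the other strand, was at 1.00096 and 1.19 RPKM in EV and between 0.395 and 0.673 RPKM in the isoform lines, and its part in the *MX1* values was not tested.

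In the ISG15 system, the ubiquitin-like ISG15 is joined to other proteins by HERC5 and removed by USP18. Of its 4 genes 0 were called in either comparison with EV, where 21.5% and 21.2% of all genes were. *ISG15* was at 13.8 and 12.6 RPKM in EV, 13.3 and 17.8 RPKM in TBX3iso1 and 16.1 and 19.7 RPKM in TBX3iso2. The replicates of the isoform lines were far apart, and the 95% intervals of the log2 fold changes, -0.14 to 0.56 and 0.07 to 0.77, were wide, and the first covers 0. *USP18*, which also dampens signalling at the receptor, was at 6.33 and 5.70 RPKM in EV, 5.96 and 6.34 RPKM in TBX3iso1 and 9.08 and 8.20 RPKM in TBX3iso2. Its log2 fold change with TBX3iso2 was 0.51 (adjusted p = 0.00417), under the fold threshold, and 0.59, just past it, both without EV replicate 1 and without TBX3iso2 replicate 2. Since 26.7% of the read-length stretches of its transcript also occur elsewhere, mainly in its near copy *USP41*, its level is uncertain. *HERC5* stayed between 0.675 and 0.982 RPKM and *HERC6*, its relative, between 1.72 and 2.09 RPKM.

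PARP9 and DTX3L form a complex that adds ADP-ribose and ubiquitin to chromatin and viral proteins, and their genes lie head to head on chromosome 3 and overlap. *PARP9* was at 4.85 and 4.82 RPKM in EV, 3.16 and 3.14 RPKM in TBX3iso1 and 3.57 and 3.04 RPKM in TBX3iso2. It was called with TBX3iso1 (log2 -0.60, adjusted p = 0.00338) and stayed under the fold with TBX3iso2 (log2 -0.54, adjusted p = 0.00534), except without TBX3iso2 replicate 1 (log2 -0.65). The TBX3iso1 call was lost with a pseudocount of 1 RPKM, with median-ratio scaling and with quantile normalization. *DTX3L* was at 10.5 and 9.71 RPKM in EV, 7.85 and 7.55 RPKM in TBX3iso1 and 10.3 and 7.45 RPKM in TBX3iso2, and was not called (log2 -0.39, adjusted p = 0.0596, and -0.20).

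The IFI genes are named only for their induction by interferon. Of the 5 tested, 3 were called lower with TBX3iso1 and 3 with TBX3iso2, where 14.1% and 12.3% of all genes were. With 5 genes nothing is read from these counts. *IFI6*, a small membrane protein that restrains flaviviruses and apoptosis, was at 13.7 and 14.0 RPKM in EV, 6.72 and 7.09 RPKM in TBX3iso1 and 7.21 and 7.90 RPKM in TBX3iso2. Every isoform library was far below EV, with log2 fold changes of -0.996 (adjusted p = 0.000109) and -0.87 (adjusted p = 0.000202). *IFI27* was at 2.48 and 2.66 RPKM in EV, 1.47 and 1.88 RPKM in TBX3iso1 and 0.980 and 1.52 RPKM in TBX3iso2. It passed narrowly with TBX3iso1 (log2 -0.60, adjusted p = 0.0483), a call lost without EV replicate 1 (adjusted p = 0.145), EV replicate 2 (0.202) or TBX3iso1 replicate 1 (0.182) and under 7 other alternatives. It passed more clearly with TBX3iso2 (log2 -1.01, adjusted p = 0.00618). This call was lost without EV replicate 2 (log2 -0.96) and with an unmoderated linear model (adjusted p = 0.091). *IFI35*, which regulates signalling of the RNA sensors, was at 7.89 and 6.95 RPKM in EV, 4.41 and 4.24 RPKM in TBX3iso1 and 5.82 and 6.46 RPKM in TBX3iso2. It was called with TBX3iso1 (log2 -0.76, adjusted p = 0.000913) and not with TBX3iso2 (log2 -0.27, adjusted p = 0.0641). The neighbours *IFI44* and *IFI44L* lie in tandem on chromosome 1, and their values differed in pattern. *IFI44L* was at 3.74 and 3.997 RPKM in EV, 2.99 and 2.58 RPKM in TBX3iso1 and 2.45 and 2.41 RPKM in TBX3iso2, and was called with TBX3iso2 (log2 -0.65, adjusted p = 0.00286). That call was lost with a pseudocount of 1 RPKM and with quantile normalization. *IFI44* was at 6.31 and 6.03 RPKM in EV, 7.58 and 8.25 RPKM in TBX3iso1 and 5.43 and 5.77 RPKM in TBX3iso2, with log2 fold changes of 0.35 (adjusted p = 0.0151) and -0.14 (adjusted p = 0.24), both under a fold of 1.5.

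The isoforms were also compared with each other. Of the 33 genes 2 were called, or 6.06%, beside 6.29% of all genes tested, with 1 lower beside 2.82% and 1 higher beside 3.47%. *BST2* was 9.96-fold lower in TBX3iso2 than in TBX3iso1 by the means given above (log2 -3.15, 95% interval -3.53 to -2.78, adjusted p = 6.53e-05), and this held in every alternative. *OAS1* was higher in TBX3iso2 (log2 0.64, 95% interval 0.36 to 0.93, adjusted p = 0.0134). That call was lost without TBX3iso1 replicate 2 (log2 0.59), with a pseudocount of 1 RPKM (log2 0.45) and with an unmoderated linear model (adjusted p = 0.0894). A further 7 genes were higher and 1 lower in TBX3iso2 at an adjusted p under 0.05 with a fold under 1.5. Among them *IRF9* differed by 0.54 (adjusted p = 0.00579), *IRF1* by 0.56 (adjusted p = 0.017) and *USP18* by 0.48 (adjusted p = 0.0172) on the log2 scale. *IFI44*, the 1 lower gene, differed by -0.49 (adjusted p = 0.0119). The median log2 difference was 0.18, beside 0.05 for all genes. Without TBX3iso2 replicate 2, 4 genes were called, with *IRF1* and *IFI27* added.

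The wider pathway was followed in 5 further lists, 99 of whose genes were in the table and 83 tested. Of 24 interferon ligand symbols 5 were in the table, and the highest value was 0.583 RPKM, for *IFNE* in 1 EV library. *IFNB1* stayed at or under 0.0676 RPKM. None of the 5 was tested. Among 9 receptor and kinase genes tested, 0 were called with TBX3iso1, and 1 rose and 1 fell with TBX3iso2, or 22.2% beside the 21.2% of all genes given above. The 1 that rose was *IFNLR1*, a chain of the interferon lambda receptor (log2 0.69, adjusted p = 0.0082), and the 1 that fell was *IFNGR1*, the interferon gamma receptor chain (log2 -0.59, adjusted p = 0.000697).

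Of 13 sensors and adaptors that act upstream of interferon, 2 rose and 1 fell with TBX3iso1, or 23.1% called beside 21.5% of all genes. With TBX3iso2 4 rose and 0 fell, or 30.8% beside 21.2%, where 8.94% of all genes were higher. The kinase gene *IKBKE* (log2 0.87 and 0.71) and *TMEM173*, which encodes STING (0.81 and 0.71), rose in both. *MAVS*, the mitochondrial adaptor of the RNA sensors, fell with TBX3iso1 (-0.86), and *TICAM1*, a Toll-like receptor adaptor, rose with TBX3iso2 (0.77), as did *MB21D1*, which encodes the DNA sensor cGAS (0.65). Of 9 negative regulators, *IRF2* (log2 -0.97 and -0.71) and *PIAS1* (-0.60 and -0.70) fell in both lines, and *CISH* rose with TBX3iso1 (0.77), which makes 33.3% and 22.2% called beside the same shares of all genes.

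Among 52 other interferon-stimulated genes tested, 2 rose and 7 fell with TBX3iso1, and 3 rose and 12 fell with TBX3iso2, with medians of -0.24 and -0.16 on the log2 scale. These are 17.3% and 28.8% called, the first below and the second above the 21.5% and 21.2% of all genes. Of all genes tested, 14.1% and 12.3% were called lower and 7.46% and 8.94% higher, with medians of -0.05 and -0.00. *GBP2*, a guanylate-binding GTPase, fell by 3.29 and by 2.95 on the log2 scale. *GBP1*, of the same family, had log2 fold changes of -1.43 and -0.65, and the GPI-anchored *LY6E* -1.38 and -1.04. *APOL1*, an apolipoprotein that lyses trypanosomes, changed by -0.24 (adjusted p = 0.111) and -1.502 (adjusted p = 6.43e-05). *SLFN11*, a restriction factor active under replication stress, changed by -0.40 with TBX3iso1, under the fold, and rose by 1.396 with TBX3iso2. Between the isoforms 4 of the 83 genes were called, or 4.82% beside 6.29% of all genes, with *SLFN11* (1.80), *AIM2* (1.03), a DNA sensor of the inflammasome, and *GBP1* (0.78) higher and *APOL1* (-1.26) lower in TBX3iso2.

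**Figure D4:**
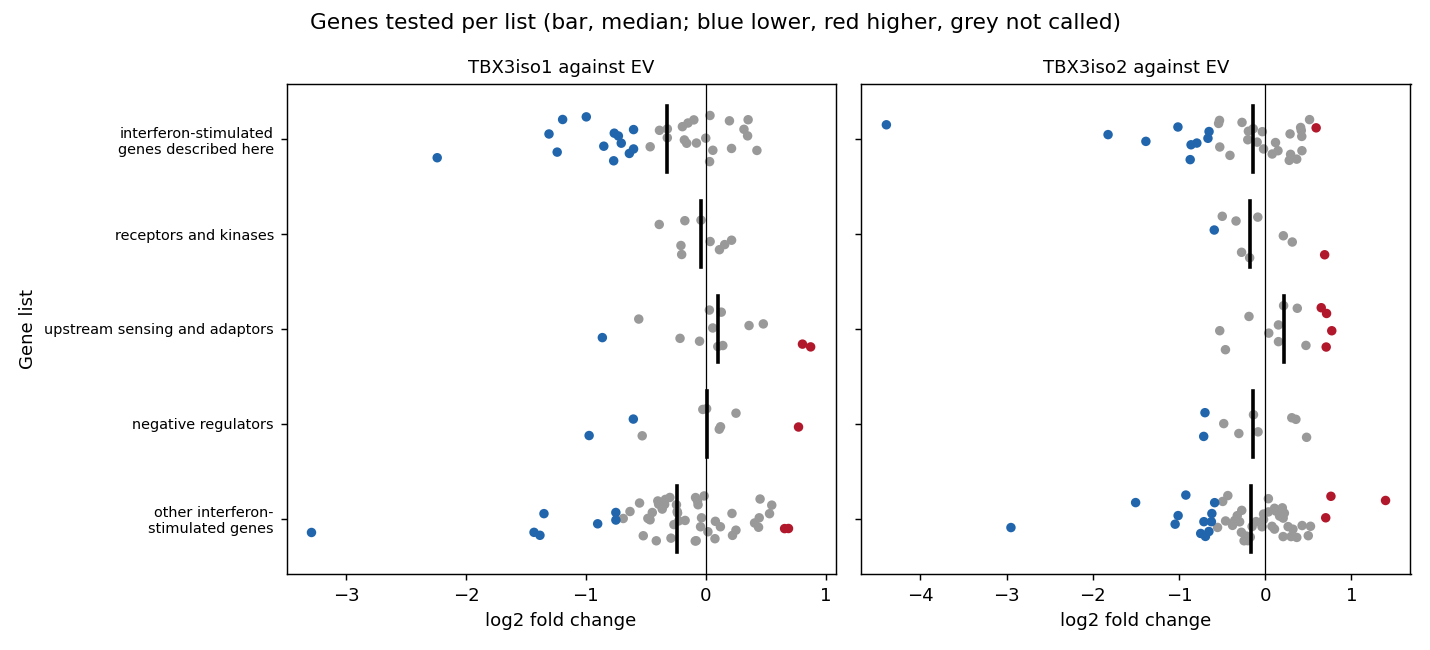
Log2 fold change of every tested gene of the 39 described here and of 4 wider lists, for TBX3iso1 against EV on the left and TBX3iso2 against EV on the right, with the vertical bar at the median of the list. Blue marks called lower, red called higher and grey not called, and the vertical scatter within a list has no meaning. The medians of the first list are -0.32 and -0.14.

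Markers of other cells were checked, since leukocytes express many of these genes strongly. All 8 epithelial markers had a mean of at least 0.5 RPKM. Their summed levels were 3400 to 3512 RPKM in EV, 2708 to 2964 RPKM in TBX3iso1 and 3059 to 3426 RPKM in TBX3iso2. Of the 8, 2 were called lower with TBX3iso1 and 3 with TBX3iso2, and 0 were called higher. These are 25% and 37.5% called, beside 21.5% and 21.2% of all genes tested. The lowest log2 fold changes in this list were -1.67 and -1.84. Of 10 leukocyte markers 8 were in the table and 6 of these, *PTPRC* and *CD3E* among them, were under 0.5 RPKM in every library. The summed leukocyte level was 11.4 to 12.8 RPKM in EV, 4.03 to 4.62 RPKM in TBX3iso1 and 3.87 to 3.998 RPKM in TBX3iso2, most of it from *CD14*. The 3 plasmacytoid dendritic cell markers in the table summed to at most 0.0371 RPKM. Of 6 fibroblast markers 4, and of 5 endothelial markers 4, were under 0.5 RPKM in every library. Each of these lists had only 1 marker with a mean of at least 0.5 RPKM. The fibroblast one was called higher (log2 0.77 with TBX3iso1 and 0.70 with TBX3iso2) and the endothelial one lower (-2.56 and -2.41). The summed levels were 4.60 to 4.86, 8.12 to 8.69 and 7.14 to 7.58 RPKM for fibroblast markers and 7.41 to 7.77, 1.42 to 1.49 and 1.32 to 1.49 RPKM for endothelial markers in EV, TBX3iso1 and TBX3iso2. Their part in the results was not tested. In bulk RNA, fewer cells that express a gene and less RNA per cell cannot be told apart.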

How the data were processed

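Stranded mRNA libraries were read from both ends on a HiSeq, TopHat placed the reads on hg19, and the authors deposited RPKM values made in Partek for 20824 genes. Software versions, the annotation and the strand setting of counting are not given in the sources used here. RPKM values were taken to log2 after adding 0.1. The 12805 genes that averaged 0.5 RPKM or more were fitted with limma 3.58.1 in R 4.3.3, with 1 mean per line over all 6 libraries, a trended empirical Bayes step and p-values adjusted by Benjamini and Hochberg over these genes. A call needed an adjusted p under 0.05 and a fold over 1.5, the thresholds of the methods, whose ANOVA was replaced because each line has 2 libraries. SDs of the log2 difference between replicates were 0.182 (EV), 0.242 (TBX3iso1) and 0.273 (TBX3iso2). The 39 genes and the other lists were chosen with earlier results of these data known. A gene of 1 wider list is not reported here and enters none of the list counts. Members that were called or reached 10 RPKM in a line are named, as are up to 3 called genes of each wider list per comparison with the largest change, and *MB21D1* was added as the fourth of 4. Positions are from GENCODE v44lift37 on GRCh37, and promoters from RefSeq on GRCh38.p14. The settings varied were the pseudocount (1 and 0.01 RPKM), the filter (none, or a mean of 2 RPKM), scaling (median-ratio and quantile), only the lines compared, a replicate block, no trend, no moderation, and leaving out each library in turn.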

Additional observations from a re-analysis of the deposited data

How the results depend on the processing

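No call of the 33 genes turned direction under any alternative. Where a lost call kept a log2 fold change past the fold threshold, it was the adjusted p that no longer passed. With TBX3iso1, 8 of 13 calls held under every alternative, with TBX3iso2 4 of 10 (*BST2*, *IFITM1*, *STAT2* and *IFI6*) and between the isoforms 1 of 2. With a pseudocount of 1 RPKM, which weighs low genes less, 6 genes were called with TBX3iso2 and 1 between the isoforms, 15 of the wider lists were called with TBX3iso2, and the TBX3iso1 median was -0.23. Without the filter the medians were -0.18 with TBX3iso1 and -0.093 with TBX3iso2, where the 6 low genes are counted too. Quantile normalization gave medians of -0.13 and -0.078, and median-ratio scaling a median of 0.13 between the isoforms; the cause was not tested. The unmoderated linear model called 1 member and 2 wider-list genes between the isoforms. Among all genes, the split between the isoforms turned from 444 higher and 361 lower to 344 and 447 with median-ratio scaling and 351 and 435 with quantile normalization. Leaving out each library moved the members called from 10 to 13 with TBX3iso1, from 7 to 12 with TBX3iso2 and from 2 to 4 between the isoforms. The medians then ranged from -0.34 to -0.22, from -0.17 to -0.092 and from 0.16 to 0.25, and the wider-list counts from 14 to 17, from 16 to 27 and from 4 to 5. The replicate numbers carry no stated link between lines. Same-numbered libraries deviated together with r = 0.22 (EV and TBX3iso1), 0.114 (EV and TBX3iso2) and 0.499 (the isoforms) across genes, which are not independent replicates. With a replicate block the members called stayed at 13, 10 and 2 and the wider-list counts were 17, 23 and 5, beside 22.2%, 21.8% and 7.03% of all genes. With 2 libraries per line, a fit that leaves 1 out assumes that the lone library varies like the others, and no test for a single deviating library was possible. The filter left 6 genes without a test.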

Other observations

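The genes beside the strongest changes were read within 100 kb of each gene in GENCODE, a window chosen after the data were seen. *BST2* has 12 protein-coding neighbours there, 7 of them tested, of which 0 rose and 2 fell in each line, where 14.1% of all genes tested were called lower with TBX3iso1 and 12.3% with TBX3iso2. With so few genes nothing is read from the count. The 2 that fell were the acyl-CoA transporter gene *SLC27A1* (log2 -0.87 and -1.07) and the hydrolase gene *ABHD8* (-1.14 and -1.29). *MVB12A*, annotated at a distance of 92 bases from *BST2*, had log2 fold changes of 0.03 (adjusted p = 0.854, limma) and -0.13 (adjusted p = 0.34). Its levels were 12.3 and 11.5 RPKM in EV, 11.3 and 13.0 RPKM in TBX3iso1 and 10.2 and 11.6 RPKM in TBX3iso2, which overlap.

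*IFITM1* has 8 tested neighbours, of which *IFITM2* fell with TBX3iso1 and none with TBX3iso2. *STAT2* has 7, of which *IL23A*, a cytokine subunit, rose (log2 1.08 and 1.02) and *PAN2*, a deadenylase subunit, fell (-1.24 and -1.32) in both lines. *IFI6* has 2, of which neither was called. In *OAS1* the only tested neighbour was *OAS3*, not called. Among all genes tested, 21.5% were called with TBX3iso1 and 21.2% with TBX3iso2. With so few neighbours per gene nothing is read from these counts.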
